A study of Mus musculus with 12 samples.

Results

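The genes described here are 10 that encode chaperones of the endoplasmic reticulum (ER) and components of the unfolded protein response: Hspa5, Hsp90b1, Dnajb9, Herpud1, Calr, Pdia4, Sel1l, Edem1, Sdf2l1 and Ern1. They were taken by gene symbol from a table of normalised counts that lists 29486 genes, and all 10 were found. A gene entered a comparison when 4 or more libraries had a normalised count of 10 or above for it, and all 10 did so, among 15616 genes in all.

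Total polyadenylated mRNA was sequenced from splenic B cells of C57BL/6Babr mice, in 12 libraries of 3 conditions with 4 libraries each. Cells of the first condition (LPS) received LPS, a bacterial activator of B cells, at 10 µg/ml for 48 h. Cells of the second (LE) received the same LPS for 48 h and then etoposide, a topoisomerase II inhibitor that breaks DNA, at 20 µM for 4 h. Cells of the third (LEKU) had 47 h of LPS and then KU55933, an inhibitor of the DNA damage kinase ATM, at 10 µM. It was added 1 h before etoposide, which was given at 20 µM for 4 h. The paper describes no removal of KU55933 before etoposide. LPS was thus given to every library, and no cells received KU55933 without etoposide. An effect of KU55933 by itself therefore cannot be told apart from an effect on the response to etoposide. The labels do not say whether the cells with LPS alone were kept for the further 4 h, so that time in culture and etoposide cannot be told apart. The Illumina indexes of a condition were carried by no other condition, and an index effect cannot be told apart from the condition either.

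The table totalled between 20400994 and 30575195 counts per library. Within a condition, any 2 columns differed by 1 constant factor for every gene, to within 1.4e-14 on the log2 scale, so the table holds 1 fitted value per gene and condition and no spread between the 4 replicates. Each level below is therefore the fitted count of a condition after the library factors were divided out, with no SD, and no difference could be tested. A gene is said to have risen or fallen when its fitted counts differed by at least 1.5-fold (0.58 on the log2 scale), and the share of all 15616 genes past the same limit is given as the background. Intervals are exact 95% intervals of the ratio of summed columns, with the fitted values taken as if they were read counts. They cover counting error only, so they are narrower than any interval between replicates would be. In these bulk samples, fewer cells of a type and less RNA per cell cannot be told apart.

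Proteins that enter the secretory pathway fold in the ER with the help of chaperones and disulfide isomerases, and those that fail are returned to the cytosol and degraded. When unfolded proteins build up, 3 membrane sensors respond. IRE1α, encoded by Ern1, splices the Xbp1 mRNA into the form that encodes an active transcription factor. ATF6 is cut in the Golgi and becomes a transcription factor, and PERK, encoded by Eif2ak3, phosphorylates eIF2α and so favours translation of ATF4. Together these factors raise the transcription of chaperone and degradation genes. B cells that turn into antibody-secreting cells enlarge their ER and depend on Xbp1 to do so. Counts per gene do not separate the spliced from the unspliced Xbp1 mRNA and hold no protein level.

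ATF6 and XBP1 are known to act through short promoter elements, which are shown here because 4 of the 10 members carry one in the RefSeq promoter (GRCm38.p6, from 250 bases before to 50 after the start site). The ER stress response element (ERSE, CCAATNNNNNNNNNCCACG) was present, on either strand, in the promoters of Hspa5, Calr and Hsp90b1, the last with 2 copies. The related ERSE-II (ATTGGNCCACG) was present in that of Herpud1. The unfolded protein response element (UPRE, TGACGTGG) was in none of the 10 promoters. Of 32851 RefSeq promoters of the same length, 0.119% held an ERSE, 0.0365% an ERSE-II and 0.676% a UPRE. The stretches below run 5′ to 3′ on the strand given, with the element in capitals and 5 flanking bases on each side. The element of Hspa5 ended 46 bases before the RefSeq start site, and GENCODE M21 places the start of the gene further upstream, so that the element lies within that extent. In Hsp90b1 the elements lay 193 and 88 bases before the start, in Calr 143 bases and in Herpud1 41 bases. Only exact matches to these letters were sought, so an element that differs from them by a base was not counted. A match is a run of letters and does not show that a factor was bound in these cells.
Hspa5 ERSE, chr2:34772020-34772048, plus strand: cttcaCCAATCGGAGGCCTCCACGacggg
Hsp90b1 ERSE far from the start, chr10:86705633-86705661, minus strand: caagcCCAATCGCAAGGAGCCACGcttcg
Hsp90b1 ERSE near the start, chr10:86705528-86705556, plus strand: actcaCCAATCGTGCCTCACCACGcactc
Calr ERSE, chr8:84847070-84847098, plus strand: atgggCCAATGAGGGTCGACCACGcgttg
Herpud1 ERSE-II, chr8:94386372-94386392, plus strand: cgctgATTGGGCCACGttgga

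The members were abundant and spanned a wide range. Their mean fitted counts over the 3 conditions ran from 1140 for Dnajb9 to 24649 for Hspa5. Levels of different genes are compared per kb of exons, on GENCODE M21 exon lengths. With LPS alone the highest level was that of Calr, the lectin chaperone calreticulin, at 7883 fitted counts per kb. Hspa5 followed at 6947 and Hsp90b1 at 6270, and Pdia4 stood at 4323. The middle of the order was held by Sdf2l1 at 2155, Herpud1 at 2041 and Edem1 at 1363 per kb. Sel1l at 890.2, Dnajb9 at 453.9 and Ern1 at 198.5 per kb were the lowest, which set the sensor below every chaperone. Calr, Hspa5, Hsp90b1 and Pdia4 held the first 4 places, and Sel1l, Dnajb9 and Ern1 the last 3, in each condition. Places changed in the middle, where Edem1 went from place 7 with LPS to 5 with LE and 6 with LEKU, Sdf2l1 from 5 to 7 in both etoposide conditions, and Herpud1 from 6 to 5 in LEKU. With LPS, Sdf2l1 and Herpud1 were the closest neighbours in the order, and without a spread between replicates it cannot be said whether they differed.

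**Figure D1:**
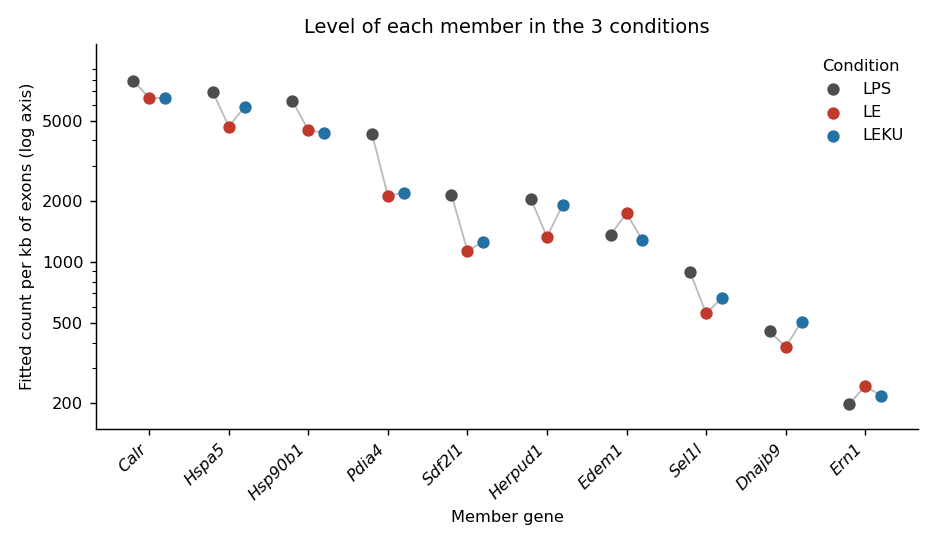
Fitted counts per kb of exons (log axis) of the 10 genes in the LPS, LE and LEKU conditions, ordered by the level with LPS. Each point is 1 fitted value for a condition of 4 libraries, and no error is available. Pdia4 drops from 4323 with LPS to 2128 with LE and stays at 2197 with LEKU, whereas Edem1 and Ern1 are highest with LE.

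Etoposide treatment was compared with LPS alone to ask how the ER folding genes changed during DNA damage. The LE level was below the LPS level for 8 of the 10 genes, and 4 of them, Pdia4, Sdf2l1, Sel1l and Herpud1, fell by the 1.5-fold rule. None of the 10 rose. Among all genes, 13.5% fell and 24.1% rose by that rule, and among the 5443 genes with a mean of at least 1000, where the members lie, 16.1% fell and 12.0% rose. Of all genes 45.2% were lower in LE than in LPS, and of the abundant genes 54.7%. The median log2 fold change of the members was -0.53, against 0.07 over all genes and -0.06 over the abundant genes. The split of all calls depended on the scaling of the libraries: risen genes made up 64.0% of them here, 52.4% with trimmed mean of M values (TMM) factors and 44.4% with quantile normalisation.

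The sensor gene Ern1 had a fitted count of 1622 with LPS, 1991 with LE and 1786 with LEKU. Its LE level was thus 1.23-fold the LPS level (log2 0.30, counting interval 0.25 to 0.34), short of the limit. Ern1 and Edem1 were the only members above their LPS level after etoposide.

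Hspa5 encodes BiP, the ER member of the HSP70 family, which binds unfolded chains and keeps the sensors inactive. Its fitted count was 29380.0 with LPS, 19816 with LE and 24752 with LEKU. The LE level was 1.48-fold below the LPS level (log2 -0.57, counting interval -0.58 to -0.56), just short of the limit. It passed the limit with TMM factors (log2 -0.71) and with factors rebuilt from the authors' mean over all libraries. Hsp90b1 encodes GRP94, the HSP90 of the ER. It stood at 25282.5 with LPS and was lower, at 18096, with LE and at 17592.5 with LEKU. The difference of LE from LPS, log2 -0.48, was under the limit here and past it with TMM factors (log2 -0.62). Hsp90b1 shares 415 exonic bases, 10.3% of its exonic length, with the pseudogene 1810014B01Rik on the opposite strand, whose mean fitted count was 92.9. The library kit kept the strand, and whether the counting used it is not given in the sources used here. Calr had the smallest difference of these 3 chaperones, from 22703 with LPS to 18733 with LE and 18596.5 with LEKU, a log2 difference of -0.28 between LE and LPS.

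Both cochaperones act with BiP. Dnajb9 encodes the J-domain protein ERdj4 and Sdf2l1 a partner of J-domain proteins. Dnajb9 had the smallest mean of the 10 genes, with 1157 counts under LPS, 970.0 under LE and 1293 under LEKU. Its LE level differed from the LPS level by log2 -0.25 (counting interval -0.32 to -0.19), and LEKU was the highest of the 3 conditions. Sdf2l1 went from 2388 with LPS to 1262 with LE and 1393 with LEKU. It fell 1.89-fold after etoposide (log2 -0.92, counting interval -0.97 to -0.87), the second largest difference among the members.

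Pdia4 encodes the disulfide isomerase ERp72. Its fitted count was 10372 with LPS, 5106 with LE and 5272 with LEKU, so both etoposide conditions stood apart from LPS. The fall of 2.03-fold in LE (log2 -1.02, counting interval -1.05 to -0.998) was the largest of the 10, and 4.60% of all genes had a lower log2 fold change. No other member passed 2-fold.

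Herpud1, Sel1l and Edem1 serve ER-associated degradation. Herpud1 is an adaptor of the membrane complex that exports misfolded proteins, and Sel1l holds the ubiquitin ligase of that complex. Herpud1 stood at 4763 with LPS, 3113 with LE and 4488 with LEKU. Its 1.53-fold fall in LE (log2 -0.61, counting interval -0.65 to -0.58) was under the limit with column totals (log2 -0.57) and with quantile normalisation (log2 -0.50). Sel1l went from 7615 with LPS to 4774 with LE and 5681 with LEKU, and its fall of 37.3% in LE (log2 -0.67) was under the limit with quantile normalisation alone among the scalings of the libraries (log2 -0.49). Edem1 encodes a mannosidase-like protein that directs misfolded glycoproteins to degradation. Its difference had the other sign, from 8797 with LPS to 11265 with LE and 8273 with LEKU, and its LE level was 1.28-fold the LPS level (log2 0.36, counting interval 0.34 to 0.38). That difference was under the limit.

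**Figure D2:**
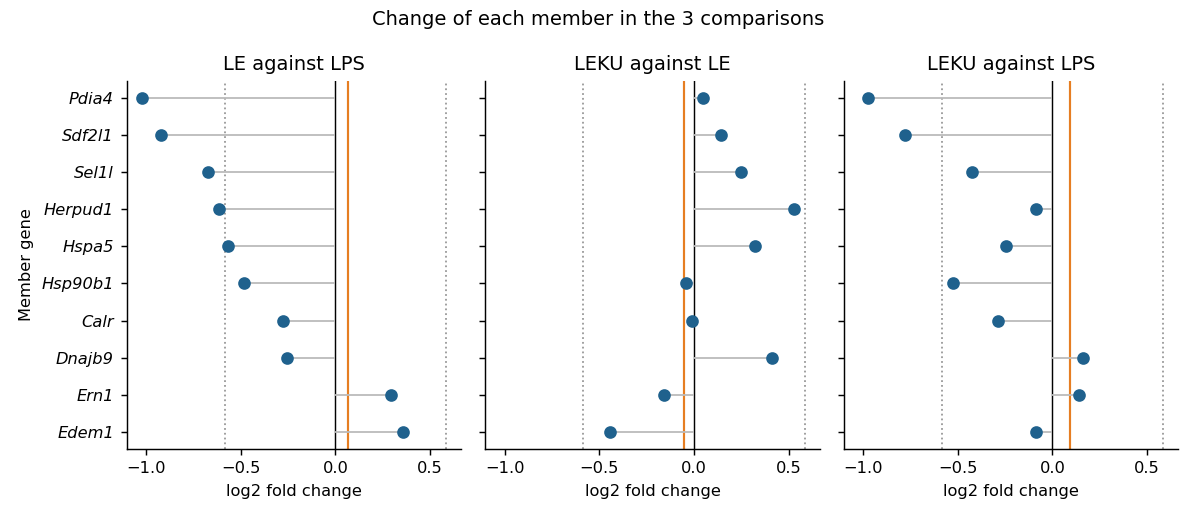
Log2 fold change of each of the 10 genes in LE against LPS, LEKU against LE and LEKU against LPS. Dotted lines mark the 1.5-fold limit and the orange line the median of all 15616 genes. In LE against LPS 4 genes lie beyond the lower limit, in LEKU against LE none lies beyond either limit, and in LEKU against LPS Pdia4 and Sdf2l1 lie beyond the lower one.

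LEKU was compared with LE to ask how the levels differed when etoposide-treated cells had also received KU55933. None of the 10 genes rose or fell by the 1.5-fold rule, against 6.85% of all genes that rose and 12.1% that fell, and 4.32% and 6.01% of the abundant genes. The median of the members was 0.09 on the log2 scale, that of all genes was -0.05 and that of the abundant genes -0.06. Risen genes made up 36.2% of all calls in this comparison and 49.1% with quantile normalisation. For 6 members LEKU was above LE and for 4 below it, while 55.9% of all genes and 58.6% of the abundant genes were below. The largest positive difference was that of Herpud1, at 1.44-fold (log2 0.53, counting interval 0.50 to 0.56), which passed the limit with column totals (log2 0.59) and with quantile normalisation (log2 0.66). Dnajb9 was 1.33-fold above its LE level (log2 0.41) and Hspa5 24.9% above (log2 0.32). Edem1 had the largest negative difference, 1.36-fold below its LE level (log2 -0.45). Calr and Hsp90b1 differed by log2 -0.01 and -0.04, and the sign of both changed between scalings.

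A different view of the same values is the share of each LE difference that was undone in LEKU, where 0% means a level equal to LE and 100% a level equal to LPS. Undone describes only where the LEKU level lay, since an effect of KU55933 by itself cannot be told apart. This grouping was made after the values were seen, and it was computed on the fitted counts of conditions that share the LE value, so it adds no independent result. Pdia4 stayed at its LE level, with 3.14% undone (2.98% to 12.9% over 5 scalings of the libraries). Sdf2l1 was close to that, with 11.7% undone (10.0% to 17.9%). Sel1l had 31.9% undone, Hspa5 51.6% and Herpud1 83.3%, with ranges of 25.8% to 69.9%, 40.2% to 68.8% and 65.4% to 138%. Among the 4 genes that fell in LE, Pdia4 had the lowest share and Herpud1 the highest. For Edem1 121% of the difference from LPS was undone (60.9% to 187%) and for Ern1 55.7% (31.6% to 96.4%). Dnajb9 had the highest share, 173% (108% to 250%), on a small difference between LE and LPS. The shares of Hsp90b1 and Calr were below 0, at -7.01% (-7.01% to 12.1%) and -3.43% (-3.43% to 38.6%), since both were slightly lower in LEKU than in LE.

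Against LPS, 2 genes were past the limit in LEKU. Pdia4 fell 1.97-fold (log2 -0.98) and Sdf2l1 1.71-fold (log2 -0.78), that is 2 of 10 genes beside 13.3% of all genes and 16.8% of the abundant genes that fell. No member rose, against 22.7% of all genes and 10.3% of the abundant ones. The members' median was -0.27, against 0.09 over all genes and -0.08 over the abundant genes. Risen genes were 63.0% of all calls here, 50.8% with TMM factors and 49.0% with quantile normalisation. Hsp90b1 was 1.44-fold lower (log2 -0.52) and passed the limit with TMM factors (log2 -0.66) and with the factors from the authors' mean. Sel1l was 1.34-fold lower (log2 -0.42). Herpud1 and Edem1 were close to LPS in LEKU, each with a log2 difference of -0.09, and the sign of both depended on the scaling. This comparison shares its LPS libraries with LE against LPS and its LEKU libraries with LEKU against LE.

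Scalings by 1 factor per library shifted all genes by nearly the same amount, and quantile normalisation shifted them unequally. The median of all genes in LE against LPS moved by -0.14 on the log2 scale with TMM factors and by -0.17 with quantile normalisation. Relative to the median of all genes, the members' median in LE against LPS was -0.59 here, -0.59 with TMM factors, -0.59 with column totals and -0.39 with quantile normalisation. The abundant genes had a lower median than all genes here, -0.06 against 0.07, so the members lay nearer to the abundant genes. On that relative scale Pdia4 lay between -1.09 and -0.72 over 5 scalings, Sdf2l1 between -0.99 and -0.79 and Hspa5 between -0.64 and -0.41. Calr lay between -0.34 and -0.040, close to the median of all genes with quantile normalisation. Ern1 lay between 0.23 and 0.39 and Edem1 between 0.29 and 0.68. The sign of every member in LE against LPS was the same under all 5.

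**Figure D3:**
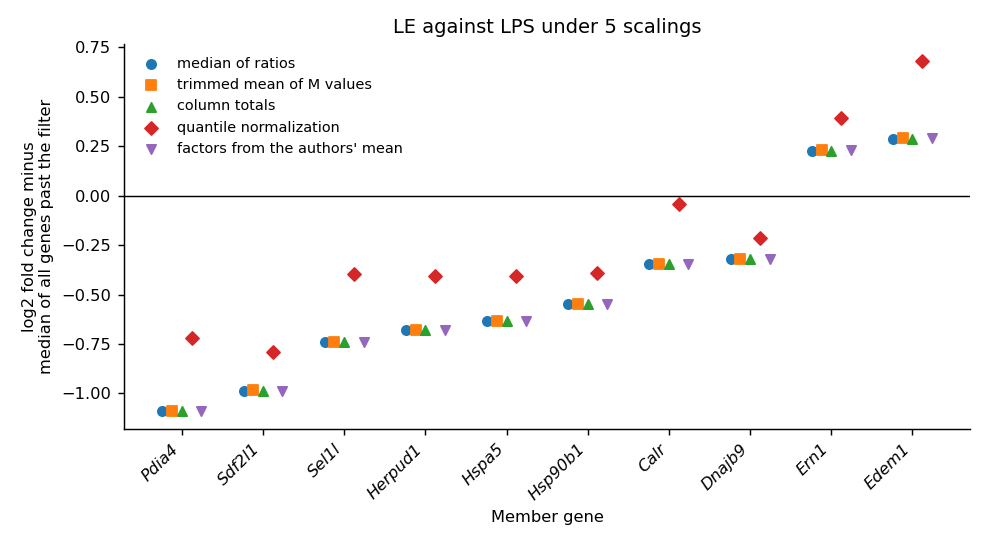
Log2 fold change in LE against LPS minus the median of all genes past the filter, for each of the 10 genes under 5 scalings of the libraries. The 4 scalings by 1 factor per library overlap, and quantile normalisation moves every gene upward, for Pdia4 from -1.09 to -0.72 and for Edem1 from 0.29 to 0.68. No gene crosses 0.

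The rest of the pathway was read from 6 lists of sensors, chaperones, disulfide isomerases, degradation factors, translocation and glycosylation factors, and the targets of the PERK and ATF4 branch. Together they hold 101 measured genes, of which Pdia5 did not reach the count minimum, and 90 of the rest are not among the 10 members. In LE against LPS, 66 of these 90 were lower and 24 higher, with 13 past the limit downward and 5 upward, and the median was -0.25. The share that fell, 14.4%, was close to the 13.5% of all genes, the share that rose was 5.56% against 24.1%, and 73.3% were lower against 45.2% of all genes. For LEKU against LE, 56 were higher and 34 lower, 9 rose (10.0%, against 6.85% of all genes) and 4 fell (4.44% against 12.1%), and the median was 0.05. In LEKU against LPS, 9 rose (10.0% against 22.7%) and 13 fell (14.4% against 13.3%). Of the genes with a mean of at least 1000, 12.0% rose, 16.1% fell and 54.7% were lower in LE against LPS. In LEKU against LE 4.32% of them rose and 6.01% fell, and in LEKU against LPS 10.3% rose and 16.8% fell. In LEKU against LE, 37.8% of the 90 genes were lower, beside 55.9% of all genes. The same shares of all genes and of abundant genes are the background of each list below.

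Among the 9 sensors and transducers other than Ern1, 8 were lower in LE than in LPS and 1 fell. That gene was Atf6, the second sensor, whose fitted count went from 9119 with LPS to 4060.1 with LE and 3655 with LEKU. The fall in LE was 2.25-fold (log2 -1.17). Atf6 spans 163.1 kb, and genes above 100 kb with a mean of at least 1000 had a median of -0.41 in LE against LPS. The part of gene length in this fall was not tested. Xbp1, the target of IRE1α, had 7338 counts with LPS, 5433 with LE and 5500.1 with LEKU, a log2 difference of -0.43 in LE against LPS. Eif2ak3, the PERK gene, stood at 2393, 2103 and 2745 in the same order, within the limit in each comparison. Atf6b, a relative of Atf6, was lower by log2 -0.53 in LE and did not pass the limit. Nfe2l1, a membrane-bound transcription factor of the ER, had the largest difference of the list in LEKU against LE, at log2 0.57. None of the 10 sensors and transducers rose or fell in LEKU against LE.

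Of the 17 further chaperones, 14 were lower in LE than in LPS, 3 fell and 0 rose. The 3 that fell were Dnajc3, Cnpy2 and Fkbp2. Cnpy2, which encodes a saposin-like ER protein, went from 869.2 with LPS to 514.1 with LE and 1006 with LEKU. Its rise in LEKU against LE was 1.95-fold. Fkbp11, a peptidyl-prolyl isomerase gene of secretory cells, had 224.5, 178.1 and 92.4 counts in the same order and fell 1.92-fold in LEKU against LE. Of the 12 further isomerases and oxidases past the filter, 7 were lower in LE than in LPS, 1 fell and 1 rose. In LEKU against LPS, 5 of the 12 fell, beside 13.3% of all genes and 16.8% of the abundant genes. Ero1lb, an oxidase that recharges disulfide isomerases, fell in LE. Qsox1, a sulfhydryl oxidase, rose 2.32-fold, from 833.7 with LPS to 1933 with LE, and stood at 1685 with LEKU. The abundant isomerases P4hb and Pdia3 did not follow Pdia4 in LE against LPS, with log2 differences of 0.02 and 0.24. Txndc5 and Pdia6 were lower, by log2 -0.51 and -0.28, both within the limit. Pdia3 fell 1.54-fold in LEKU against LE, which was under the limit with column totals (log2 -0.56) and quantile normalisation (log2 -0.49), and Txndc5 fell 1.85-fold, from 5799 to 3133.

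Of the 18 further degradation genes, 13 were lower in LE, 1 fell and 1 rose. The gene that fell was Derl3, a channel component induced by the unfolded protein response, from 1903 with LPS to 976.2 with LE and 1309 with LEKU. Herpud2, the paralog of Herpud1, rose 1.76-fold in LE, from 735.3 to 1294, and stayed at 1318 in LEKU, so that the paralogs moved in opposite directions. Vcp, the ATPase that pulls proteins out of the membrane, differed by log2 -0.18 in LE. Ube2g2, a ubiquitin-conjugating enzyme, was 1.48-fold higher in LEKU than in LE. LEKU was above LE for 15 of the 18, and none passed the limit. Of 24 translocation and glycosylation genes, 19 were lower in LE and 2 fell. These were Sec11c, a signal peptidase subunit, from 6977 to 3499, and Stt3b, an oligosaccharyltransferase subunit, from 6337 to 3877. The abundant members of that list, Ssr3 and Sec61a1, differed by log2 -0.21 and -0.16, and Ost4 was 1.47-fold lower in LEKU than in LE.

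The PERK and ATF4 branch acts through the translation of ATF4 and the genes it controls. The counts do not show PERK activity, and the part of PERK in the changes below was not tested. In LE against LPS, 3 of the 10 genes of this list rose and 5 fell. With the inhibitor (LEKU against LE), 8 rose and 1 fell, with a median of 1.08 on the log2 scale. Atf4 went from 8651 with LPS to 5708 with LE and 11339.5 with LEKU, so it fell 1.52-fold in LE and was 1.99-fold higher in LEKU than in LE. The fall was under the limit with column totals (log2 -0.55) and quantile normalisation (log2 -0.36). Its targets Atf5 and Trib3 rose 3.97-fold and 3.62-fold in LEKU against LE, from 458.7 to 1822 and from 372.3 to 1351. Ddit3, which encodes CHOP, had 696.3, 721.0 and 1599 counts in LPS, LE and LEKU. Not all genes of the list fell in LE as Atf4, Atf5 and Trib3 did. Ppp1r15a had 1231, 3563 and 8058 counts in the same order. It rose 2.89-fold in LE against LPS and 2.26-fold in LEKU against LE. Atf3 had 1508, 1980 and 3419 counts, and its LE level was within the limit of LPS. Sesn2, a stress-induced gene, was the only gene of the list with a LEKU level below its LE level. It rose 7.33-fold in LE, from 1181 to 8665, and had 5770.1 counts in LEKU. That difference (log2 -0.59) was at the limit and under it with the other 4 scalings (log2 -0.58 to -0.50). Cebpb rose 3.44-fold in LE, from 45.5 to 159.1. In LEKU against LPS, 7 of the 10 genes rose and none fell. No member of the 10 chaperone and response genes passed the limit in LEKU against LE, and the difference between the lists was not tested.

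**Figure D4:**
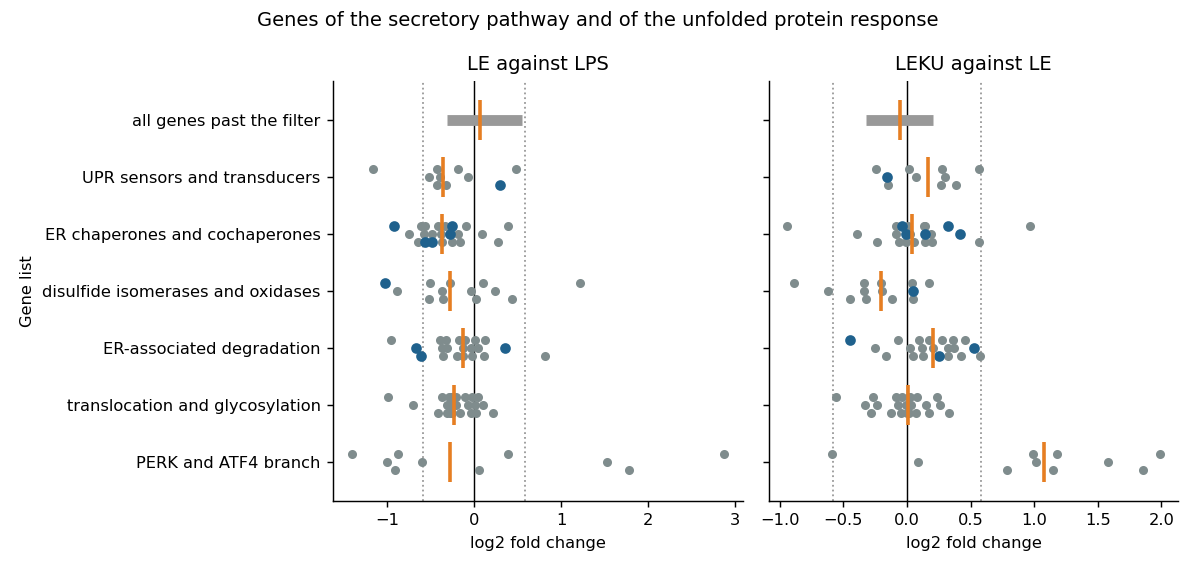
Log2 fold changes of the genes of 6 lists in LE against LPS and LEKU against LE. Blue points are the 10 members, grey points the other genes, orange bars the medians, the grey bar the quartiles of all 15616 genes and dotted lines the 1.5-fold limit. In LEKU against LE, 8 of 10 genes of the PERK and ATF4 branch lie beyond the upper limit, with a median of 1.08, and none of the members does.

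Promoter elements were set beside the changes. Of the 77 listed genes other than members with a RefSeq promoter, 7 held an ERSE (Canx, Creld2, Derl3, Dnajc3, Ero1lb, Pdia6 and Syvn1), 1 an ERSE-II (Dnajb11) and 5 a UPRE (Nfe2l1, Txndc11, Txndc5, Ube2j1 and Vcp). The 4 members with an ERSE or ERSE-II had log2 differences in LE against LPS of -0.57 (Hspa5), -0.48 (Hsp90b1), -0.28 (Calr) and -0.61 (Herpud1). Pdia4 and Sdf2l1, with the largest falls, held no exact match to the 3 elements in this window, and inexact matches were not sought. Of the 8 other listed genes with an ERSE or ERSE-II, 7 were lower in LE than in LPS, from -0.28 for Pdia6 to -0.96 for Derl3. Among all 90 listed genes other than members, 73.3% were lower. The 5 genes with a UPRE were lower as well, from -0.13 for Ube2j1 to -0.52 for Txndc11. A link between an element and the change was not tested. Among the genes with an ERSE or ERSE-II the exception was Canx, which encodes the membrane lectin calnexin. It was higher in LE than in LPS, at 21439 against 17685 counts (log2 0.28). With LEKU against LE the 4 members with an element ranged from -0.04 for Hsp90b1 to 0.53 for Herpud1.

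Long genes had a lower median than short ones in LE against LPS across the table, and the members' spans are therefore given beside their changes. Among genes with a mean of at least 1000, the median log2 fold change in LE against LPS was 0.07 for spans under 10 kb, -0.00078 for 10 to 30 kb, -0.14 for 30 to 100 kb and -0.41 above 100 kb. The members' spans ran from 2.25 kb (Sdf2l1) to 93.2 kb (Ern1). Sdf2l1, Dnajb9, Calr, Hspa5 and Herpud1 are under 10 kb, and each had a log2 fold change below the median of that class. Hsp90b1 at 15.3 kb, Pdia4 at 17.3 kb and Sel1l at 43.1 kb were also below the median of their class. Edem1 at 30.7 kb and Ern1 were above theirs, so the longest member was one of the 2 that were higher in LE. The part of gene length in these differences was not tested.

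The genes most like Hspa5 and Ern1 were sought among 10873 genes with a mean of at least 100, by the distance between pairs of log2 fold changes against LPS in 3 conditions. For Hspa5 they were Gimap1, Mir142hg, Tomm34, Bcl2l2 and Nktr, at distances of 0.0034 to 0.017. For Ern1 they were Ncln, Igkv14-126, Mettl2, Klhl20 and Gm26905, at distances of 0.0025 to 0.012. None of the 10 members and none of the 90 other pathway genes was among them. With only 3 conditions such a likeness is weak, since many genes can share a pair of values.

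Marker genes moved with the conditions, and their part in the differences above was not tested. The 5 B-cell markers reported, Cd79a, Cd79b, Ms4a1, Cd22 and Pax5, passed the filter and were lower in LE than in LPS, and their summed fitted count was 101056 with LPS, 56258 with LE and 53649 with LEKU. The 7 plasmablast markers, of which 6 passed the filter, summed to 35397 with LPS, 38507 with LE and 26738 with LEKU. Markers of T cells (5 genes), neutrophils (3) and NK cells (2) did not pass the filter and summed to between 0.87 and 9.44 counts in any condition. The 6 macrophage markers summed to between 402.4 and 478.2 counts, with 3 that rose in LE against LPS (Cd14 from 5.0 to 24.7 counts, Csf1r from 4.0 to 10.6 and Cd68 from 100.8 to 215.9) and 1 that fell (Itgam, from 212.3 to 131.8). Since the libraries of a condition share 1 fitted value, a gene passed the filter once any condition reached 10 counts. Csf1r did so only in LE and Cd14 only in LE and LEKU. Their rises are thus tied to the filter and carry no weight. The 5 erythroid markers summed to 208.5 with LPS, 148.8 with LE and 108.5 with LEKU. The 5 B-cell markers remained at 1146 counts or more each in every condition, while Pax5, Cd22 and Cd79b fell in LE.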

How the data were processed

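Total mRNA was measured by mRNA-seq in 12 libraries. Per the labels and the methods of the study, reads were trimmed with Trim Galore and cutadapt 1.2.1, mapped to GRCm38 with TopHat2 2.0.12, counted on Ensembl 78 genes with HTSeq and fitted with DESeq2 1.6.3. The authors deposited a signal per gene and library that they call a normalised count. Its columns were found to be a fitted condition value times a library factor, so the planned limma test, which needs a spread between replicates, could not be run. The fallback planned with it was used instead: the fold between fitted values, with a limit of 1.5-fold. No paired or replicate-based error can be given. The authors' 3 deposited comparison tables hold fold changes, standard errors and p-values, which were not used. The mean over all libraries of 1 of them served to rebuild the authors' factors for 1 alternative.

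Columns were scaled by the median of ratios over genes with a mean of at least 100, and log2 values used a pseudocount of 1. Totals ranged from 20400994 to 30575195 counts per library. At that depth, and with fitted values taken as read counts, counting error of the members' log2 differences was 0.013 (Hspa5) to 0.062 (Dnajb9). These are half-widths of exact Clopper-Pearson intervals at 95%. Gene spans and exon lengths came from GENCODE M21 and promoters from RefSeq (GRCm38.p6). Listed genes carry the symbols of the table, and 87 of 101 matched a promoter. The scripts ran on numpy 2.4.6, pandas 2.3.3 and scipy 1.17.1 under Python 3.11.15. The median of ratios, TMM factors and fold changes were tested on simulated data with known factors and no noise. Equal numbers of genes were raised and lowered there, unlike in these data. The other scalings, the intervals and the promoter search were not tested in this way.

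The members, gene lists and naming rule were chosen with earlier results of these data known. The text names all 10 members and, per list, the 2 genes with the highest mean and the 2 with the largest difference in LE against LPS and in LEKU against LE. It also names markers with values beside a result and the 5 genes nearest in pattern to Hspa5 and to Ern1. Dnajc3, Fkbp2, Ero1lb, Ddit3, Ppp1r15a, Atf3, Pdia5, the genes with a promoter element and the overlapping 1810014B01Rik were named after their values were seen. Alternatives were other scalings, pseudocounts, filters, call limits, and leaving out each library. The authors' mean factors, the unscaled columns and the background of abundant genes were added after the data were seen. Of the planned B-cell markers, 1 is not reported here.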

Additional observations from a re-analysis of the deposited data

How the results depend on the processing

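The values are fitted condition means, so they show neither the spread between replicates nor its effect on any difference. No paired analysis was possible because the columns of a condition carry the same values up to 1 factor and no result comes from a test. Leaving out each of the 12 libraries in turn moved no member by more than 0.0050 on the log2 scale, which is fixed by that construction and says nothing of stability. Pseudocounts of 0.5 and 5, no filter and a mean of at least 50 changed no count past the limit for the members or the 6 lists by more than 1.5 times. No difference of a member or listed gene that had passed the limit changed sign under the 5 scalings. Under the limit, signs did change: Pdia4 in LEKU against LE was -0.04 with unscaled columns, and Herpud1 in LEKU against LPS was 0.15 with quantile normalisation. Of the named genes, quantile normalisation also ended the falls of Dnajc3 (log2 -0.56) and Stt3b (-0.57) in LE against LPS, and column totals that of Fkbp2 (-0.56). The cause of the other moves was not tested, except that a lower limit admits more genes and a higher one fewer.

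Counts of lists below include the members they hold and are genes past the limit in either direction. In LE against LPS the members' median of -0.53 became -0.66 with TMM factors, -0.62 with the authors' mean factors and -0.28 with unscaled columns. The members that fell numbered 4 at first, 6 with TMM factors, 5 with the authors' mean factors, 3 with column totals, 2 with quantile normalisation and 2 with unscaled columns, which also gave 1 that rose (Edem1). In LEKU against LE the median of 0.09 became 0.16 with quantile normalisation and 0.0088 with unscaled columns, and 1 member (Herpud1) rose with column totals and with quantile normalisation. In LEKU against LPS the median of -0.27 became -0.40 with TMM factors, -0.16 with column totals, -0.11 with quantile normalisation, -0.35 with the authors' mean factors and -0.10 with unscaled columns.

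Scalings also moved the list counts. In LE against LPS, sensors went from 1 to 2 with TMM, the authors' mean factors and unscaled columns. Chaperones went from 4 to 9 with TMM, 7 with the authors' mean factors and 2 with unscaled columns. Isomerases went from 3 to 5 with TMM and the authors' mean factors. Degradation genes went from 4 to 2 with quantile normalisation, and translocation genes from 2 to 1 with quantile normalisation and unscaled columns. In LEKU against LE, sensors went from 0 to 1, isomerases from 2 to 1 and degradation genes from 0 to 2 with column totals and with quantile normalisation, and translocation genes from 0 to 1 with quantile normalisation and unscaled columns. In LEKU against LPS, degradation genes went from 1 to 2 with TMM, column totals, the authors' mean factors and unscaled columns. Translocation genes went from 3 to 1 with column totals and quantile normalisation and to 0 with unscaled columns, and chaperones from 5 to 3 with unscaled columns.

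With a lower limit of 0.32 on the log2 scale, 6 members fell and 1 rose in LE against LPS, 2 rose and 1 fell in LEKU against LE, and 4 fell in LEKU against LPS. Sensors, chaperones, isomerases, degradation and translocation genes then numbered 7, 14, 8, 9 and 4 in LE against LPS and 2, 5, 6, 9 and 3 in LEKU against LE. In LEKU against LPS, sensors, chaperones, degradation and translocation genes numbered 3, 11, 7 and 6. With a limit of 2-fold, 1 member (Pdia4) fell in LE against LPS and 0 in LEKU against LPS. Chaperones, degradation and translocation genes were 0 and PERK and ATF4 genes 5 in LE against LPS. Chaperones and isomerases were 0 in LEKU against LE, and chaperones, isomerases, degradation and translocation genes 1, 2, 0 and 0 in LEKU against LPS.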

Other observations

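Genes that mark the antibody-secreting fate, in which the unfolded protein response is known to be active, had levels as follows. Sdc1, which encodes the plasma cell surface protein syndecan-1, rose 14.9-fold in LE against LPS, from 133.4 to 1996 fitted counts, and fell 3.10-fold in LEKU against LE, to 643.9. Irf4, a transcription factor of activated B cells and plasma cells, stood at 10588 with LPS and 12014 with LE and fell 1.97-fold in LEKU against LE, to 6107. Jchain, which encodes the joining chain of secreted antibodies, had 3780 counts with LPS, 5237 with LE and 2735 with LEKU, a fall of 1.91-fold in LEKU against LE. Prdm1, the transcription factor Blimp-1, had 2275, 1752 and 1235 counts in the same order and passed the limit in neither of these comparisons. In LEKU against LPS, Sdc1 rose 4.80-fold, while Prdm1 fell 1.84-fold and Irf4 1.73-fold. The fall of Irf4 was under the limit with quantile normalisation (log2 -0.47). Xbp1, of the same marker list, was lower in LE than in LPS (log2 -0.43), within the limit. Mzb1, an ER cochaperone of B cells that folds antibody chains, stayed within the limit, at 11281, 12071 and 10516.

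The markers of B-cell identity were not uniform either. Pax5, which maintains B-cell identity, fell 4.66-fold in LE against LPS, from 5341 to 1146, and Cd22, a surface lectin, fell 5.32-fold, from 23231 to 4369. Both stayed low in LEKU, at 1180 and 5115 counts. Cd79b fell 1.51-fold in LE, from 20759 to 13734, which was under the limit with column totals (log2 -0.55) and quantile normalisation (log2 -0.48). Cd79a and Ms4a1 were 1.35-fold and 1.44-fold lower in LE, and Ms4a1 fell 1.56-fold in LEKU against LE, from 21030.1 to 13507, which was just under the limit with column totals (log2 -0.58).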
